A study of Mus musculus with 20 samples.

Results

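CD200+ non-MRU are mouse mammary cells that stained for the surface glycoprotein CD200, did not stain for its receptor CD200R1, and lay outside the gate of the mammary repopulating units (MRU). They were represented by 5 of the 20 libraries of the series, 1 from each of 5 mice, and were set against the mean of the 3 other sorted populations with the mouse as a block. Those were MRU positive for both CD200 and CD200R1 (CD200+CD200R1+ MRU), all other MRU (remaining MRU), and CD200R1+ non-MRU, which stained for CD200R1 but not CD200. The MRU gate takes cells with medium CD24 and high CD49f, the integrin chain encoded by Itga6. The mice were virgin FVB/N females aged 6 to 8 weeks, numbered 2 to 6, and the labels name no treatment or transgene. Cells came from the fourth inguinal glands after depletion of lineage-positive cells with an EasySep kit. Each library was made with the SMART-Seq V4 kit from the polyA RNA of 1000 sorted cells. The labels call every population epithelial, and record that about 10% of the cells in the CD200R1+ non-MRU library of mouse 4 came from mouse 3.

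The mammary epithelium has an inner luminal layer and an outer basal, contractile layer. Luminal cells comprise progenitors, which express the transcription factor Elf5 and make milk proteins when prolactin acts through STAT5, and hormone-sensing cells, which carry oestrogen, progesterone and prolactin receptors. Around the ducts lie fibroblasts, fat cells, vessels and resident macrophages and lymphocytes. Among fibroblasts, the Pi16- and Dpp4-expressing type is known from the mouse as a broadly distributed, progenitor-like state.

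The 5 CD200+ non-MRU libraries held 11317878 to 13862963 counts, within the range of all 20 libraries (10853587 to 13862963). The mean share of counts on mitochondrial genes was 2.74% in CD200+ non-MRU, against 2.79% in CD200R1+ non-MRU, 3.74% in remaining MRU and 4.31% in CD200+CD200R1+ MRU. Levels are CPM, a gene's count relative to its library's size, scaled by edgeR's TMM factors. The factors averaged 1.083 in CD200+ non-MRU, 0.808 in CD200R1+ non-MRU, 1.055 in remaining MRU and 1.085 in CD200+CD200R1+ MRU. Values of 5 libraries are listed for mice 2, 3, 4, 5 and 6 in that order, and fold changes are given against the nearest population, which is the one with the smallest difference. Adjusted p-values are edgeR quasi-likelihood values adjusted over all 17236 genes tested. In these bulk libraries fewer cells of a type and less RNA per cell cannot be told apart.

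The 4 marker genes named for the population were at high levels in every CD200+ non-MRU library, and the population carried luminal and fibroblast markers side by side. Csn3 (chr5:87925579-87932665, + strand, GRCm38), which encodes the milk protein kappa-casein, stood at 6769, 9831, 3576, 4619 and 10410 CPM. Over the 15 other libraries its lowest level was 1.68, its median 930 and its highest 2467 CPM, so the groups did not overlap. Its level was 4.22-fold higher than in remaining MRU, the nearest population (log2 2.08, SE 0.25, adjusted p = 3.84e-06). Elf5 (chr2:103411688-103450989, + strand), a luminal progenitor and alveolar transcription factor, stood at 35.5, 41.4, 28.9, 39.1 and 54.9 CPM. The 15 other libraries ran from 0.0932 through a median of 6.26 to 12.2 CPM, again with no overlap (4.89-fold against CD200+CD200R1+ MRU, log2 2.29, SE 0.25, adjusted p = 1.31e-06).

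Cldn3, a claudin of epithelial tight junctions, stood at 386, 480, 477, 425 and 384 CPM against a highest value of 96.8 CPM in the other 15. The 5 libraries lay close together and all above the rest. Pi16, a fibroblast marker that encodes peptidase inhibitor 16 (chr17:29317680-29330593, + strand), stood at 493, 455, 382, 413 and 139 CPM. In CD200R1+ non-MRU it stood at 108, 155, 17.8, 92.3 and 34.2 CPM, so mouse 6 of CD200+ non-MRU fell below mouse 3 of that population and the groups overlapped. Pi16 was still called higher than in CD200R1+ non-MRU (5.08-fold, log2 2.34, SE 0.40, adjusted p = 8.55e-05).

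**Figure D1:**
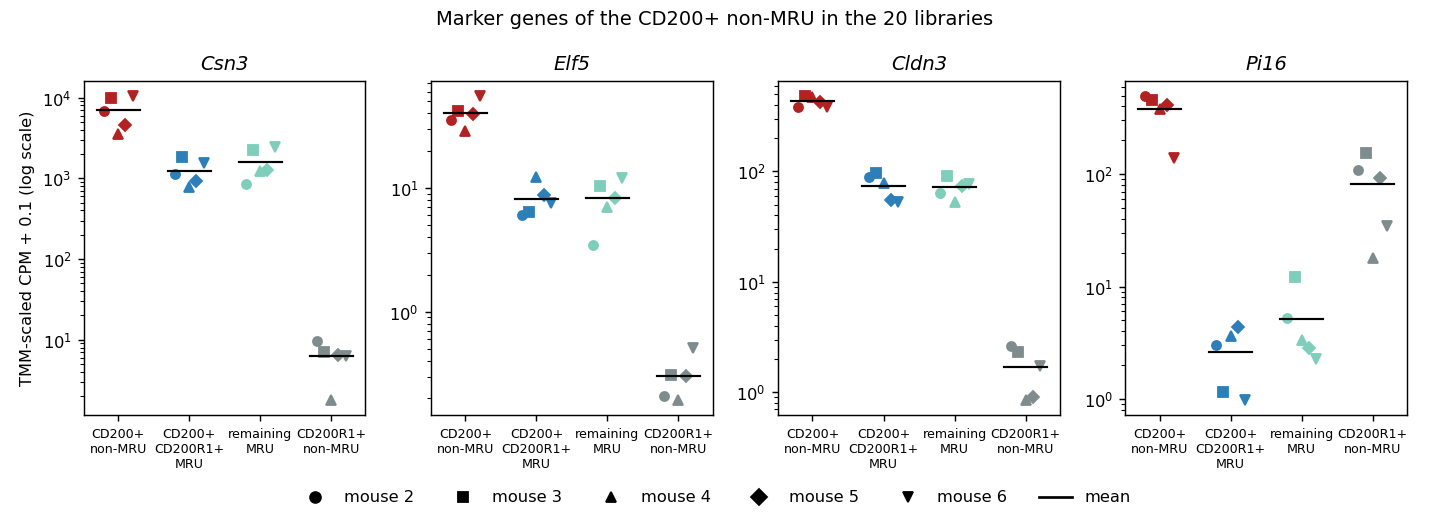
Levels of the 4 marker genes in all 20 libraries by population, on a log axis in TMM-scaled CPM with a small constant added, 1 symbol per mouse and a line at each mean. Csn3, Elf5 and Cldn3 of CD200+ non-MRU lie above all 15 other libraries, and Pi16 overlaps CD200R1+ non-MRU.

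The genes behind the sort followed the gates in part. Cd200 averaged 199.5 ± 34.2 CPM (SD, n = 5) in CD200+ non-MRU and was called higher than in CD200+CD200R1+ MRU (1.98-fold) and CD200R1+ non-MRU (57.3-fold). The remaining MRU stood at 198.5 ± 18.9 CPM, and the difference was not called (adjusted p = 0.959). Cd200r1 was low throughout, at 4.05 ± 2.44 CPM in CD200+ non-MRU and 0.864 ± 0.773 CPM in CD200R1+ non-MRU, so its transcript did not follow the stain. Itga6 averaged 79.2 CPM in CD200+ non-MRU against 1113 and 815.5 CPM in the MRU populations, the direction of the gate. Cd24a, which encodes CD24, differed by log2 0.41 from CD200+CD200R1+ MRU and 0.28 from remaining MRU, and neither was called. Ptprc, which encodes the leukocyte antigen CD45, stood at 586, 422.5, 373, 505 and 688 CPM and did not overlap the other 15 libraries, whose highest value was 234 CPM (2.53-fold against CD200+CD200R1+ MRU, adjusted p = 4.24e-05). The label epithelial thus sits beside leukocyte and fibroblast transcripts, whose share by cell number was not measured.

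Against the mean of the other populations, 4552 of the 17236 genes tested were called higher in CD200+ non-MRU (26.4%) and 4697 lower (27.3%). Under scaling by library totals alone the split was 5788 higher and 3785 lower. The mean of 3 unlike populations can be set by 1 of them, and 313 of the genes called higher and 200 of those called lower were called the other way against at least 1 population. Calls in the same direction against each population were made for 1785 genes higher (10.4%) and 2074 lower (12%), which is 39.2% and 44.2% of the calls against the mean. The nearest population of the 1785 was CD200+CD200R1+ MRU for 722, remaining MRU for 607 and CD200R1+ non-MRU for 456. For the 2074 lower genes it was CD200+CD200R1+ MRU for 459, remaining MRU for 832 and CD200R1+ non-MRU for 783.

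The lowest CD200+ non-MRU library exceeded the highest of the 15 others for 1117 genes (6.48%), and the highest lay below the lowest of the others for 1044 genes (6.06%). Of these, 1062 and 1031 were also called against each population. A gap of at least 2-fold left 176 and 135 genes. At the edge of the definition, Rars2 was just inside, with a lowest level of 16.421 CPM against 16.418 CPM, and Smap2 just outside, with 50.091 against 50.101 CPM. On the lower side Stac2 was just inside, with a highest level of 11.581 CPM against a lowest of 11.588 CPM elsewhere, and Grn just outside, at 195.241 against 195.22 CPM. Singly, 4440 genes were higher (25.8%) and 4349 lower (25.2%) than in CD200+CD200R1+ MRU. Against remaining MRU 3710 were higher (21.5%) and 4371 lower (25.4%). Against CD200R1+ non-MRU 4313 were higher (25%) and 5031 lower (29.2%), a split that became 7074 higher and 3107 lower under library totals alone. Without the CD200R1+ non-MRU library of mouse 4, 4517 genes were higher and 4707 lower than the mean. These contrasts share the 5 CD200+ non-MRU libraries and are not independent of each other.

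Among the 846 genes that met the naming rule on the higher side, the 15 with the greatest difference from their nearest population held 6 genes known from epithelia, 8 known from lymphocytes, and Arg1. This grouping was made by hand with the names known. They were chosen by the contrasts that also give their p-values, so their values describe the extremes. The epithelial genes were Reg3g, Aldh1a3, Ltf, Muc20, Aqp5 and Atp6v1b1. Reg3g encodes a secreted antibacterial lectin, and stood at 30.1, 7.95, 23.6, 58.8 and 42 CPM. Its highest value elsewhere was 2.64 CPM, so all 5 libraries lay above the rest (28.9-fold against remaining MRU, log2 4.85, SE 0.73, adjusted p = 3.5e-05). Aldh1a3, a retinaldehyde dehydrogenase used as a progenitor marker, stood at 145, 136, 101, 68.3 and 55.8 CPM against at most 24.9 CPM elsewhere. Every mouse was above the other populations, mice 5 and 6 least (14.4-fold against CD200+CD200R1+ MRU, log2 3.85, SE 0.50, adjusted p = 6.99e-06).

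Ltf, which encodes the iron-binding milk and mucosal protein lactoferrin, stood at 571, 518, 431, 226 and 807 CPM. The other 15 libraries ran from 0.0932 through 22.3 to 120 CPM and did not overlap (10.2-fold against remaining MRU, log2 3.35, SE 0.40, adjusted p = 3.11e-06). Muc20, a membrane mucin, averaged 22 ± 6.17 CPM against at most 5.69 CPM in any other library. Aqp5, the apical water channel of secretory epithelia, averaged 101 ± 35.9 CPM against at most 26.1 CPM. Atp6v1b1 encodes a proton pump subunit of acid-secreting epithelia, and averaged 29.6 ± 6.93 CPM against at most 5.54 CPM. For each of these 3 the CD200+ non-MRU libraries stood apart from all others, and the difference from the nearest population was 9.58-fold, 9.06-fold and 8.80-fold.

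The lymphocyte genes among the 15 were Ccr8, Cxcr6, Ctla4, Tnfrsf4, Icos, Il2rb, Gzmb and the T-cell receptor segment Trbv3. Arg1, an arginase known from myeloid and innate lymphoid cells, completed the 15, at 60.02, 113, 30.3, 60.7 and 121.5 CPM against at most 20.3 CPM. Ctla4, an inhibitory receptor of activated and regulatory T cells, stood at 180, 123, 46.02, 168 and 246.5 CPM against at most 29.95 CPM elsewhere. Mouse 4 was lowest but still above all others (13.1-fold against CD200+CD200R1+ MRU, log2 3.71, SE 0.46, adjusted p = 4.89e-06). Icos, a T-cell costimulatory receptor, averaged 162.5 ± 74.2 CPM, and Tnfrsf4, which encodes the costimulatory receptor OX40, averaged 157 ± 63.7 CPM. In both, mouse 4 was the lowest library. Ccr8, a chemokine receptor of regulatory T cells in tissues, stood at 20.7, 17.5, 24.6, 34.7 and 35.5 CPM against at most 3.56 CPM elsewhere (26.2-fold against remaining MRU, adjusted p = 0.000103). The chemokine receptor Cxcr6 averaged 32.9 ± 15.1 CPM and the interleukin-2 receptor chain Il2rb 43.9 ± 11.5 CPM, without overlap with other libraries.

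Gzmb, a cytotoxic granule protease, stood at 15.1, 19.4, 3.01, 8.09 and 14.6 CPM against at most 1.41 CPM. Mouse 3 was highest, and its removal lowered the difference from remaining MRU from 19.3-fold to 10.9-fold. Trbv3 averaged 21.6 ± 8.99 CPM, and since its reads may be shared with related segments, the value is uncertain. Foxp3, the lineage factor of regulatory T cells, was outside the 15 and is named with its values known. It stood at 17.4, 10.3, 3.84, 17.6 and 17.6 CPM against at most 2.15 CPM elsewhere, again with mouse 4 lowest and no overlap (8.26-fold against CD200+CD200R1+ MRU, adjusted p = 1.87e-05).

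**Figure D2:**
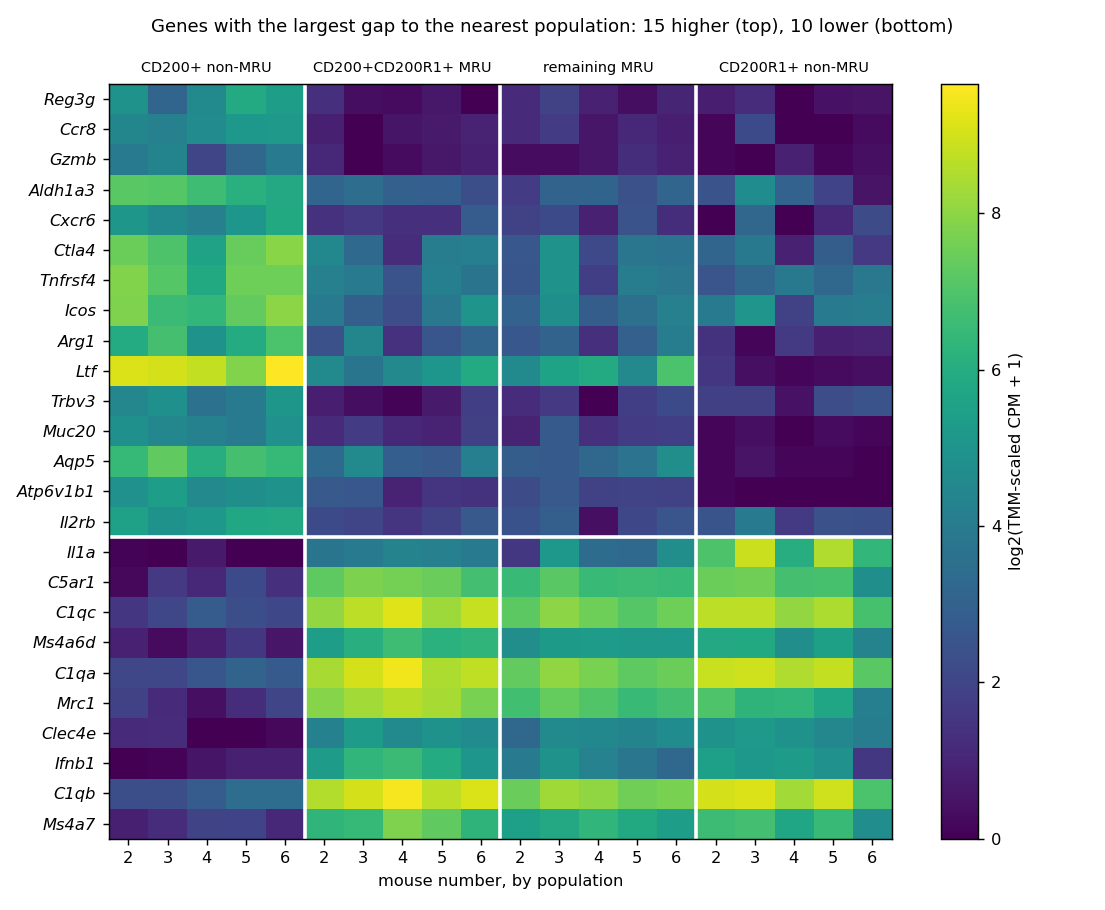
Heat map of the genes chosen by size of difference, 15 higher (top) and 10 lower (bottom) in CD200+ non-MRU, with 1 column per library by population and mouse. Colour is the level as log2 of TMM-scaled CPM plus 1, and the 5 columns at the left lie outside the range of the other 15 for every gene.

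Luminal identity genes rose as a group. All 20 pan-luminal genes tested were called higher in CD200+ non-MRU than the mean of the others and none lower, with a median log2 difference of 3.79 against -0.02 over all genes. For this list and those that follow, the shares over all genes were 26.4% higher and 27.3% lower against the mean, and 10.4% and 12% against each population. Singly they were 25.8% and 25.2% against CD200+CD200R1+ MRU, 21.5% and 25.4% against remaining MRU, and 25% and 29.2% against CD200R1+ non-MRU. The shares without overlap were 6.48% higher and 6.06% lower. Called against each population were 16 of the 20, and the same number did not overlap other libraries. The summed level of the list ran from 10770 to 15650 CPM, against 28.7 to 158 in CD200R1+ non-MRU, 2721 to 4224 in remaining MRU and 3076 to 5006 CPM in CD200+CD200R1+ MRU. The luminal keratin Krt8 stood at 1437, 2059, 1393, 1500 and 1344 CPM. Its highest value elsewhere was 604.5 CPM, so no library overlapped (3.48-fold against CD200+CD200R1+ MRU, log2 1.80, SE 0.40, adjusted p = 0.00119). Its partner Krt18 stood at 3401, 5209, 3263, 3600 and 3263 CPM, and Krt19, a keratin of simple epithelia, at 1828, 2240, 2177, 2452 and 2135 CPM. Neither overlapped, and the difference from the nearest population was 5.52-fold and 4.84-fold.

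Tight junction and polarity genes moved with them. Of 19 tested, 14 were higher than the mean and 4 lower, with a median log2 difference of 2.66. Against each population 10 were higher and 1, the polarity gene Pard3, lower (2 without mouse 3 of CD200+ non-MRU). Cldn4 averaged 668 ± 239 CPM and was 6.54-fold above its nearest population, CD200+CD200R1+ MRU. Ocln, which encodes the junction protein occludin, averaged 41.9 ± 5.07 CPM against at most 12.8 CPM elsewhere. Crb3, an apical polarity protein, averaged 32.8 ± 6.86 CPM and had no count in any CD200R1+ non-MRU library, where 3 counts over the 5 libraries would be 0.06085 CPM. The CD200+ non-MRU libraries were above all others for each of these 3 genes.

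Luminal progenitor genes gave more higher than lower calls. Of 20 tested, 11 were higher and 5 lower than the mean (median log2 difference 1.63), where the shares over all genes were 26.4% and 27.3%. Against each population 10 were higher and 3 lower, beside 10.4% and 12% over all genes, so the lower counts were near the background. Plet1, a surface marker of luminal progenitors, stood at 1871, 2451, 1166, 1864 and 1692 CPM against at most 477 CPM elsewhere. Trf, which encodes the iron carrier transferrin, averaged 882 ± 390 CPM, 4.36-fold above remaining MRU, and its 5 libraries were all above the rest. The genes lower against each population were Id2, Lmo4 and Cebpb, which encode transcriptional regulators. Id2 stood at 915.5, 790, 711, 730 and 899 CPM, below every other library but only 1.30-fold under the nearest population (adjusted p = 0.0106).

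Milk protein genes had the highest median difference of the 28 lists. Of 19 tested, 17 were higher than the mean and 1 lower, with a median log2 difference of 4.04, and 12 were higher than each population with none lower. The lower call was lost without mouse 4, 5 or 6 of CD200+ non-MRU or mouse 2 or 5 of CD200R1+ non-MRU. Only 10 of the 19 did not overlap other libraries, and several caseins varied widely between mice. The promoters of 4 members held the letters TTCNNNGAA, the palindrome bound by STAT5 dimers, which carry the prolactin signal to milk genes. They are shown to place that signal's letters beside the genes whose levels follow. RefSeq (GRCm38.p6) gave 15 promoters, from 250 bases before to 50 after the start, for 14 of the 20 genes listed. The motif, searched on both strands and in capitals below, was in 4 of these 15 and in 2726 of all 32851 promoters (8.3%), and a match is a description of letters only.
Csn1s1 chr5:87665958-87666257 + strand: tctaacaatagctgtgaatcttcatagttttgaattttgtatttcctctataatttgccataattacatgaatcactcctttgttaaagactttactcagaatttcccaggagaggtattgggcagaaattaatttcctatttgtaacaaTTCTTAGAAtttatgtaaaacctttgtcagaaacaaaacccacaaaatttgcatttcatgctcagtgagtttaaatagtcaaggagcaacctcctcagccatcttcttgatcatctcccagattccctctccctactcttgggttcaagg
Csn2 chr5:87699376-87699675 - strand: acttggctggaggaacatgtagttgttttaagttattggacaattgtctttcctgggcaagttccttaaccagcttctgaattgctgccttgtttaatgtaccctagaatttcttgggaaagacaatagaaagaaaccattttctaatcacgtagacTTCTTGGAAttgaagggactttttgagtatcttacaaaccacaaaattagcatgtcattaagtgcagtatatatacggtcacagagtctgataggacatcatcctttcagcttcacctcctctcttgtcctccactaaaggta
Csn1s2a chr5:87774200-87774499 + strand: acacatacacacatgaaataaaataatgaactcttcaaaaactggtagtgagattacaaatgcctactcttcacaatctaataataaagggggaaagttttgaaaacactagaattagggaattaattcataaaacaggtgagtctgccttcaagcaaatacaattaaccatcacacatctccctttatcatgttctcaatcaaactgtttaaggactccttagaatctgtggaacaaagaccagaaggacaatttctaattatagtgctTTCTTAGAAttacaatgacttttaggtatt
Glycam1 chr15:103565032-103565331 - strand: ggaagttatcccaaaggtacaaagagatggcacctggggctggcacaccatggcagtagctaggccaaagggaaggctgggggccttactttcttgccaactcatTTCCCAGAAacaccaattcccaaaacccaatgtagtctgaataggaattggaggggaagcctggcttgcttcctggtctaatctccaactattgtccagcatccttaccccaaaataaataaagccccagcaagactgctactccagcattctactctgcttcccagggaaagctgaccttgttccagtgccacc

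In Csn1s1, Csn2 and Glycam1 the letters lay before the transcription start, at window bases 151 to 159, 158 to 166 and 106 to 114, and in Csn1s2a after it, at bases 271 to 279. The casein genes with the letters did not stand apart from remaining MRU. Csn2, which encodes beta-casein, stood at 779, 431, 1444, 547 and 8600 CPM in CD200+ non-MRU and at 18.5, 629, 3416, 423 and 3289 CPM in remaining MRU. The groups overlapped, mouse 6 was far above the other 4, and no difference was called (1.74-fold, adjusted p = 0.426). Against CD200+CD200R1+ MRU it was 7.87-fold higher (adjusted p = 0.00474). Csn1s1, the alpha-S1 casein, stood at 344, 210, 325, 292 and 1515 CPM and Csn1s2a, an alpha-S2 casein, at 318, 207, 645, 162 and 4272 CPM. Both overlapped remaining MRU, with adjusted p of 0.164 and 0.628 there, and mouse 6 was again the highest.

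Glycam1, a mucin-like milk protein, behaved differently, at 563, 564, 159, 0.441 and 3.59 CPM in CD200+ non-MRU. It was lower than in remaining MRU, which stood at 1192 to 2230 CPM (12.3-fold, log2 -3.62, SE 1.18, adjusted p = 0.0179), and within CD200+ non-MRU mice 5 and 6 were near 0 while mice 2 and 3 were high. Lalba, the lactose synthase cofactor alpha-lactalbumin, stood at 531.5, 805, 211, 578 and 1670 CPM and was 3.07-fold above remaining MRU, whose mouse 6 lay above mouse 4 of CD200+ non-MRU. Spp1, which encodes the secreted phosphoprotein osteopontin, stood at 5770, 6847, 5840, 8435 and 8414 CPM against at most 3034 CPM elsewhere. Mfge8, a milk fat globule protein also made by stroma, averaged 1021 ± 212 CPM and was 2.10-fold, 1.98-fold and 2.06-fold above the other populations. Summed over the list, mouse 6 reached 39940 CPM while the other 4 libraries lay between 14940 and 22280 CPM.

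Receptors and transducers of the prolactin signal differed in direction. Of 18 tested, 5 were higher and 8 lower than the mean, with a median log2 difference of -0.34. The higher count is near the 26.4% over all genes. The prolactin receptor Prlr stood at 534, 823, 625, 597 and 411 CPM against at most 182.5 CPM in the other 15 libraries. All 5 lay above the rest (6.16-fold against CD200+CD200R1+ MRU, log2 2.62, SE 0.29, adjusted p = 1.11e-06). The signal transducer Stat5a averaged 30.7 ± 7.40 CPM and was not called against the mean (adjusted p = 0.0776). Stat5b averaged 36.9 ± 6.82 CPM and was called higher than the mean (1.58-fold, adjusted p = 0.000654). From its nearest population, CD200R1+ non-MRU, Stat5b differed by only log2 0.06, and it was not called against each population. Socs2, a feedback inhibitor of cytokine receptors, stood at 47.2, 30.96, 39.2, 45.3 and 43.7 CPM. That was below the lowest of the other libraries, 72.8 CPM (1.99-fold under CD200+CD200R1+ MRU, adjusted p = 2.25e-05).

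Hormone-sensing genes were mostly higher, but of their receptors Esr1 and Pgr, unlike Prlr, overlapped other populations. Of 19 tested, 15 were higher and 1 lower than the mean (median log2 difference 2.86), and against each population 7 were higher and 1 lower. Without mouse 3 of CD200+ non-MRU, 2 were lower than the mean. Esr1, the oestrogen receptor, stood at 50.6, 47.6, 40.4, 55.8 and 18.8 CPM, above the MRU populations but not CD200R1+ non-MRU (adjusted p = 0.709), whose mean was 47.1 CPM. Pgr, the progesterone receptor, averaged 24.6 ± 8.98 CPM and was not called against CD200+CD200R1+ MRU (adjusted p = 0.42). Areg, the oestrogen-induced growth factor amphiregulin, averaged 309 ± 124.5 CPM and was called higher than each population, by 2.82-fold at the least. Ly6d, a surface protein of luminal cells, stood at 1012, 1464, 656.5, 917 and 1440 CPM against at most 313 CPM elsewhere. Tbx3, a T-box factor of luminal cells and stroma, was the gene lower against each, at 3.63, 3.84, 3.62, 5.30 and 3.10 CPM against at least 7.11 CPM in every other library.

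Among 24 transcription and splicing regulators of epithelia, 16 were higher and 4 lower than the mean (26.4% and 27.3% over all genes). Against each population the count was 4 and 4, near the 10.4% and 12% over all genes. The 4 higher were the ETS-family factors Elf5, Ehf and Elf3 and the homeobox factor Msx2. Ehf stood at 61.4, 52.9, 75.6, 55.7 and 65.0 CPM against at most 32.6 CPM elsewhere, and Elf3 at 76.0, 80.5, 78.5, 90.75 and 55.4 CPM against at most 35.6 CPM. Neither overlapped. The 4 lower were Tbx3, Lmo4, Cebpa and Cebpb. Against CD200+CD200R1+ MRU 4 of the 24 were higher and 12 lower, beside 25.8% and 25.2% over all genes. The 4 were those higher than each population. Against remaining MRU 6 were higher and 9 lower, beside 21.5% and 25.4%. Foxa1, a pioneer factor of hormone-sensing cells, had log2 differences of 0.75 and 1.41 from CD200+CD200R1+ MRU and remaining MRU. Those of Spdef, an ETS factor of secretory epithelia, were 1.54 and 1.74. Neither gene was called against CD200+CD200R1+ MRU. Tfap2c, an AP-2 factor, averaged 8.94 ± 3.61 CPM against 104 and 64.1 CPM in the MRU populations, and 0.296 CPM in CD200R1+ non-MRU. Grhl2, an epithelial junction regulator, averaged 11.4 ± 4.45 CPM against 24.7 and 20.3 CPM. Gata3, the luminal zinc-finger factor, averaged 43.7 ± 8.85 CPM, lower than in CD200+CD200R1+ MRU (1.87-fold, adjusted p = 0.000228) and not called against remaining MRU (adjusted p = 0.715).

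Among transport, lipid and defence genes, the transport list held the most higher calls. Of 19 transport genes, 12 were higher and 4 lower than the mean (median log2 difference 1.64), and 8 were higher and 2 lower than each population. The 2 lower became 1 under 11 of the alternatives, 5 of them the removal of 1 library. Slc5a5, the iodide transporter of lactating epithelium, stood at 19.96, 54.5, 14.1, 27.4 and 53.3 CPM against a highest value of 17.2 CPM elsewhere. Only mouse 4 overlapped, and the difference from CD200+CD200R1+ MRU was 9.03-fold, or 13.9-fold without that population's mouse 3. Folr1, a folate receptor, averaged 72.6 ± 29.3 CPM and was 3.74-fold above remaining MRU. Of 20 lipid synthesis genes, 6 were higher and 5 lower than the mean, near the 26.4% and 27.3% of all genes, with a median log2 difference of 0.06. Against each population 4 were higher and 4 lower, and 1 lower without all libraries of mouse 2 or of mouse 3. Scd1, a fatty acid desaturase, stood at 245, 203, 183, 211 and 323 CPM against at most 140 CPM. Cd36, a fatty acid uptake receptor, was lower, at 28.1, 42.75, 39.5, 25.5 and 37.6 CPM against at least 61.8 CPM in every other library.

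Of 22 mucosal defence genes, 8 were higher and 7 lower than the mean (median log2 difference 0.31), and 5 were higher and 3 lower than each population. Over all genes the shares against the mean were 26.4% and 27.3%. Hp, the haemoglobin scavenger haptoglobin, stood at 73.8, 150, 333, 113 and 118 CPM against at most 63.6 CPM elsewhere, all 5 above the rest and mouse 4 highest. Lcn2, the siderophore-binding lipocalin, averaged 3229 ± 872 CPM and was not called against either MRU population (adjusted p = 0.0718 and 0.569). Chil1, a chitinase-like secreted protein, was 4.26-fold lower than in remaining MRU. Tlr2, a receptor for bacterial lipoproteins, stood at 11.75, 16.7, 14.8, 22.9 and 13.1 CPM, below every other library. Cxcl2, a neutrophil-attracting chemokine, stood at 284, 104, 205, 142 and 241 CPM against at least 699 CPM in the others (6.41-fold under remaining MRU, adjusted p = 6.44e-06).

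**Figure D3:**
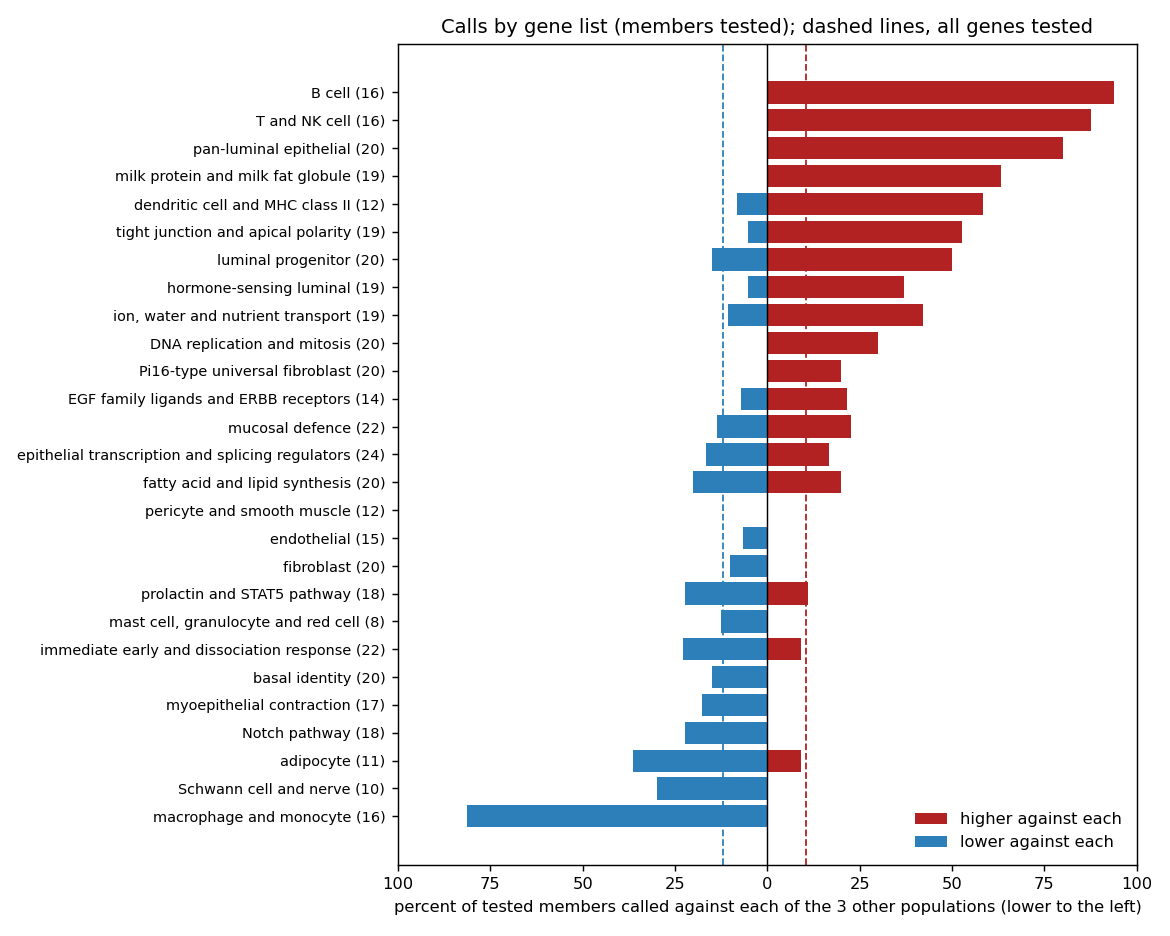
Percent of the tested members of each gene list called higher (red, to the right) or lower (blue, to the left) in CD200+ non-MRU against each of the 3 other populations, with the number tested in brackets. Dashed lines mark the share over all genes, 10.4% higher and 12% lower; 15 of 16 B-cell genes and 16 of 20 pan-luminal genes are to the right and 13 of 16 macrophage genes to the left.

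B-cell genes rose together. All 16 tested were higher than the mean, 15 were higher than each population, and 14 did not overlap other libraries, with a median log2 difference of 3.33. The summed level of the list was 6006, 4896, 4558, 5799 and 8658 CPM, against 625 to 837 in CD200R1+ non-MRU, 787 to 1066 in remaining MRU and 1142 to 1903 CPM in CD200+CD200R1+ MRU. Cd79a, a signalling chain of the B-cell receptor, stood at 805, 691, 610, 835 and 1080 CPM against at most 196 CPM elsewhere. Every library lay above the rest (5.33-fold against CD200+CD200R1+ MRU, log2 2.42, SE 0.35, adjusted p = 2.38e-05). Ighd, the IgD heavy chain of naive B cells, averaged 629 ± 174 CPM against at most 205 CPM. Fcer2a, the low-affinity IgE receptor, stood at 172, 126, 152, 129 and 312 CPM, mouse 6 highest.

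Ebf1, an early B-cell factor also expressed in fibroblasts and fat precursors, was the member not higher throughout. It averaged 245 ± 24.9 CPM, above both MRU populations but 1.94-fold below CD200R1+ non-MRU (adjusted p = 3.72e-05). The promoter of Cd22, a B-cell lectin that inhibits the receptor, was the single one of 13 B-cell promoters with the letters of the EBF1 site, TCCC and GGGA with any 2 bases between them. These were in 297 of all 32851 promoters (0.904%, both strands), 10 of the 16 genes had a promoter in the table, and the capitals below mark the match at window bases 202 to 211. It is shown because the factor and the gene were both measured here.
Cd22 chr7:30878979-30879278 - strand: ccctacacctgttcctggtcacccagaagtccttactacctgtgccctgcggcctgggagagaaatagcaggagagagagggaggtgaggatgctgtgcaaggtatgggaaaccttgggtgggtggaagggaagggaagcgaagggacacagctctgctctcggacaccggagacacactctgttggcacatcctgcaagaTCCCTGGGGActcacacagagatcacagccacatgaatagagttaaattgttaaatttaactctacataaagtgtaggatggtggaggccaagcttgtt
Cd22 stood at 84.9, 64.7, 44.5, 74.9 and 117 CPM against at most 29 CPM elsewhere, with no overlap (3.64-fold against CD200+CD200R1+ MRU, adjusted p = 0.00017).

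T and natural killer cell genes were also higher, all 16 against the mean and 14 against each population (median log2 difference 2.59). Cd3e, a chain of the T-cell receptor complex, stood at 217, 154, 97.4, 175 and 247 CPM against at most 75.4 CPM elsewhere, without overlap (3.66-fold against CD200R1+ non-MRU, adjusted p = 1.39e-06). Zap70, the kinase behind that receptor, averaged 18.2 ± 8.46 CPM against at most 6.41 CPM. The list summed to 1180, 987, 555, 1029 and 1509 CPM, lowest in mouse 4, and to at most 327 CPM in any other library. Among 12 dendritic cell and MHC class II genes, 7 were higher and 2 lower than the mean (median log2 difference 1.25). The 2 lower were dendritic cell genes, but the dendritic cell genes of the list did not share a direction. Flt3, a cytokine receptor, was higher than each population without overlap, by log2 1.24 at the least. Xcr1, Itgax and Zbtb46 were not called against the mean, at log2 1.01, -0.65 and -0.37. Batf3, a factor of cross-presenting dendritic cells, stood at 2.84, 4.74, 8.44, 2.13 and 5.79 CPM and was lower than each population (2.13-fold under CD200+CD200R1+ MRU, adjusted p = 0.0034). Cd209a, a lectin of monocyte-derived dendritic cells, averaged 8.13 ± 3.47 CPM, below both MRU populations but not called against CD200R1+ non-MRU (adjusted p = 0.995). The class II genes were among those higher. Cd74, the class II invariant chain, stood at 16870, 13790, 13680, 15660 and 21270 CPM against at most 9307 CPM. Ciita, the class II transactivator, averaged 26.4 ± 10.9 CPM against at most 10.6 CPM, and Ccr7, a receptor that guides lymphocytes and dendritic cells to lymph nodes, 1024 ± 204 CPM against at most 238 CPM. The 5 libraries stood above all others for Cd74, Ciita and Ccr7, and the part of lymphocyte transcripts in the luminal values was not tested.

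Most fibroblast genes lay between the other populations. Of 20 tested, 11 were higher and 3 lower than the mean (median log2 difference 0.64), with 5 lower without mouse 4 of CD200+CD200R1+ MRU or mouse 2 or 4 of remaining MRU. None was higher than each population, and 2 were lower than each. These were Postn, which encodes the matrix protein periostin, at 426, 408, 1137, 802 and 64.0 CPM (3.50-fold under remaining MRU, adjusted p = 0.00126), and Meox1, a homeobox gene, which did not overlap other libraries. Against the MRU populations 18 were higher, and against CD200R1+ non-MRU 19 were lower and none higher. Dcn, the matrix proteoglycan decorin, stood at 8442, 10400, 9426, 8040 and 3879 CPM, against 416 to 738 CPM in the MRU populations and 23110 to 35680 CPM in CD200R1+ non-MRU. Col1a1, a fibrillar collagen chain, averaged 736 ± 206 CPM against 81.8, 58.6 and 8047 CPM in the others. Pdgfra, a PDGF receptor of fibroblasts, averaged 82.0 ± 22.1 CPM against 12.4, 10.6 and 499.7 CPM. For Dcn, Col1a1 and Pdgfra, CD200+ non-MRU formed a separate middle level with no library overlapping either side, and mouse 6 was lowest.

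Genes of the Pi16-type fibroblast differed from this order. Of 20 tested, 19 were higher than the mean and none lower (median log2 difference 1.56). Against CD200R1+ non-MRU 7 were higher and 8 lower, beside 25% and 29.2% over all genes. Higher than each population were Pi16, Dpp4, Cd55 and Anxa3. Dpp4, a surface peptidase that marks this type, stood at 310, 240, 263, 276 and 106 CPM against 89.6, 134, 91.0, 166 and 22.5 CPM in CD200R1+ non-MRU. Mouse 6 overlapped and the others did not (2.58-fold, log2 1.37, SE 0.24, adjusted p = 0.000147). Cd55, a complement inhibitor, averaged 410 ± 91.1 CPM and was 1.71-fold above CD200R1+ non-MRU (adjusted p = 0.0111), a call lost under 2 of the alternatives. Anxa3, an annexin, stood at 607, 630, 454, 463 and 316 CPM and was the only member without overlap, against at most 260 CPM. Cd34, a surface sialomucin of this type, averaged 741 ± 185 CPM, 1.48-fold below CD200R1+ non-MRU (adjusted p = 0.0141). As a whole the Pi16-type list was not higher than in CD200R1+ non-MRU, with a median log2 difference of -0.28 there. Its summed level was 4501 to 10670 CPM in CD200+ non-MRU and 9966 to 14290 CPM in CD200R1+ non-MRU. Beside these values, the summed fibroblast list was 12970 to 27900 CPM in CD200+ non-MRU and 98120 to 136500 CPM in CD200R1+ non-MRU.

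Macrophage genes had the lowest median difference of the 28 lists. None of 16 tested was higher than the mean and 14 were lower, 13 against each population and 11 without overlap, with a median log2 difference of -4.62. The list summed to 365 to 782 CPM in CD200+ non-MRU, against 1709 to 4518 in CD200R1+ non-MRU, 1774 to 2837 in remaining MRU and 3445 to 7212 CPM in CD200+CD200R1+ MRU. The complement chain C1qa stood at 3.16, 3.14, 5.05, 7.43 and 5.63 CPM against a lowest value of 146 CPM elsewhere. Its libraries lay far below all 15 others (39.4-fold under remaining MRU, log2 -5.30, SE 0.34, adjusted p = 3.86e-09). The companion chains C1qb and C1qc were 33.2-fold and 49.6-fold under the same population. Mrc1, the macrophage mannose receptor, stood at 2.68, 1.26, 0.301, 1.40 and 3.02 CPM against at least 17.1 CPM. Ms4a6d and Ms4a7, membrane proteins of myeloid cells, were 40.9-fold and 31.96-fold under remaining MRU.

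Innate response genes completed the 10 with the greatest lower difference. C5ar1, the receptor for complement fragment C5a, stood at 0.158, 2.02, 1.13, 3.53 and 1.55 CPM against at least 27.4 CPM (63.4-fold under remaining MRU, adjusted p = 2.44e-08). Il1a, the cytokine interleukin-1 alpha, had 9 counts in all 5 libraries together and stood at 0.0789, 0, 0.603, 0 and 0 CPM against at least 1.99 CPM elsewhere. Its difference from remaining MRU was 99.9-fold, but 580-fold without mouse 4 and 65.4-fold without mouse 3. Clec4e, a receptor for fungal and mycobacterial lipids, averaged 0.550 ± 0.682 CPM against at least 8.51 CPM, and its 37-fold difference became 60-fold without mouse 2. Ifnb1, which encodes interferon beta, averaged 0.429 ± 0.390 CPM against at least 1.93 CPM, and its 36.7-fold difference became 59.2-fold without mouse 6. Lyz2, the macrophage lysozyme, stood at 21.4, 19.7, 33.1, 61.7 and 145 CPM, highest in mouse 6 and below every other library all the same.

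Basal genes were low against the MRU but not against CD200R1+ non-MRU. Of 20 basal identity genes, 17 were lower than the mean and none higher (median log2 difference -1.53). Yet against CD200R1+ non-MRU 13 were higher and 4 lower, beside 25% and 29.2% over all genes. Krt5, a keratin of the basal layer, stood at 11.99, 12.1, 21.8, 23.3 and 2.12 CPM against 322 to 661 CPM in the MRU populations and at most 0.546 CPM in CD200R1+ non-MRU. Trp63, the basal lineage factor, averaged 2.52 ± 1.73 CPM against 127, 75.3 and 0.714 CPM in the others. CD200+ non-MRU thus lay on a middle level for both genes, mouse 6 lowest for Krt5. Snai2, a zinc-finger factor of basal and stromal cells, was the basal gene below every other library, at 12.1, 8.23, 22.4, 15.4 and 12.2 CPM (2.88-fold under CD200R1+ non-MRU, adjusted p = 7.45e-05). Of the 17 contractile genes tested, 14 were lower and none higher than the mean (median log2 difference -1.89). Acta2, smooth muscle actin, averaged 507.5 ± 186 CPM against 11540, 8674 and 75.5 CPM. Cald1, the actin-binding protein caldesmon, averaged 107 ± 39.97 CPM and was lower than each population, by 5.24-fold at the least.

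**Figure D4:**
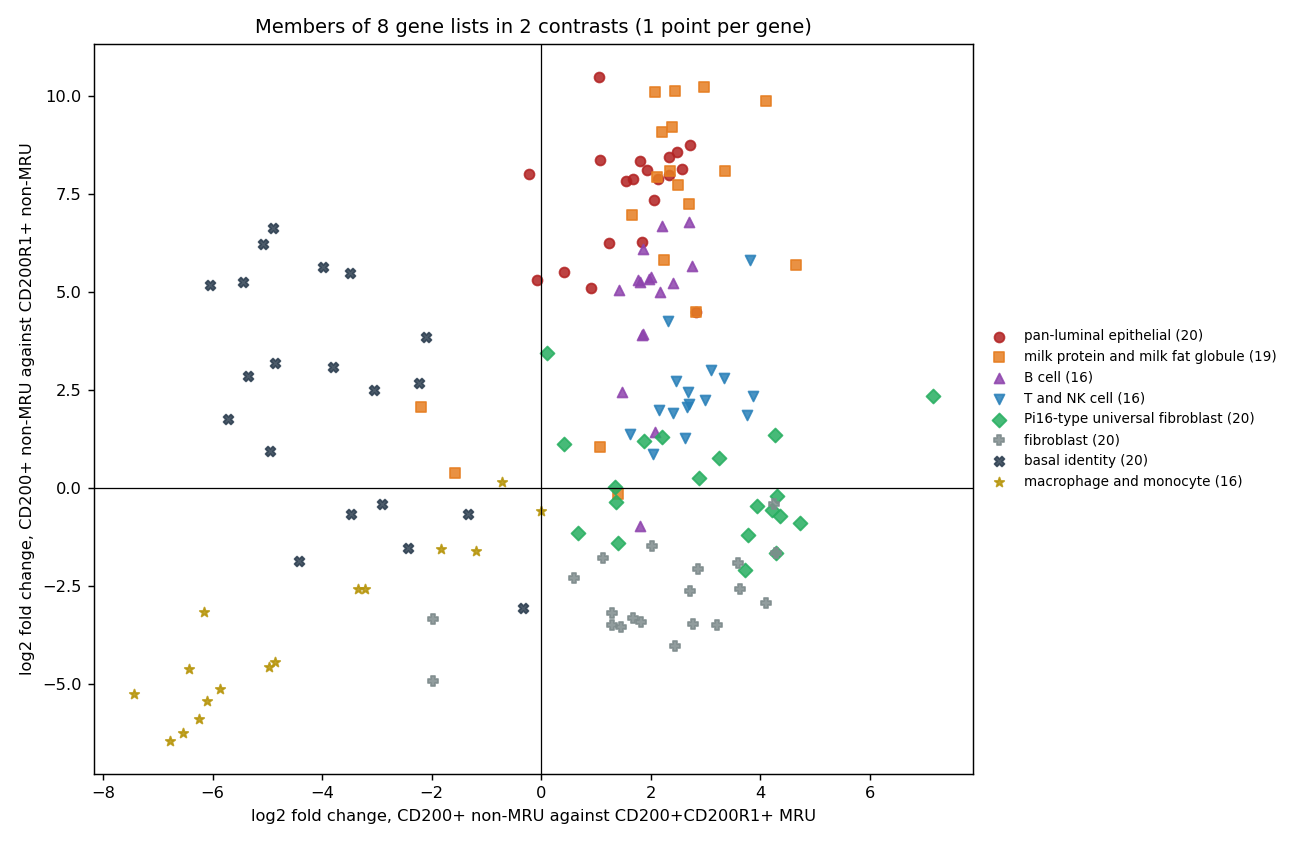
Log2 fold changes of the tested members of 8 gene lists, 1 point per gene, against CD200+CD200R1+ MRU (x axis) and against CD200R1+ non-MRU (y axis), 2 contrasts that share the CD200+ non-MRU libraries. Luminal, milk, B-cell and T-cell genes lie mostly at the upper right, fibroblast genes at the lower right, basal genes at the left (list medians -3.89 and 2.77) and macrophage genes at the lower left.

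Vessel genes were lower mainly against remaining MRU, and fat genes against all 3 populations in part. Of 15 endothelial genes, 1 was higher and 9 lower than the mean, and 1 was lower than each population (3 without mouse 4 of CD200+ non-MRU, 2 without mouse 6 of CD200R1+ non-MRU, and 0 without mouse 5 or 6 of CD200+CD200R1+ MRU). Against remaining MRU 14 were lower, beside 25.4% over all genes. Against CD200+CD200R1+ MRU 6 were lower and 1 higher, beside 25.2% and 25.8%. Against CD200R1+ non-MRU 2 were lower and 5 higher, beside 29.2% and 25%. The list medians were -5.14 on the log2 scale against remaining MRU and -0.18 against CD200R1+ non-MRU. Cdh5, the endothelial cadherin, averaged 1.97 ± 0.917 CPM against 162 CPM in remaining MRU. Of 12 pericyte genes 1 was higher and 4 lower than the mean, the latter near the 27.3% over all genes, and none was called against each population (median -0.59). Of 11 adipocyte genes, 2 were higher and 9 lower than the mean, with list medians of -1.83 against CD200+CD200R1+ MRU, -4.75 against remaining MRU and -2.08 against CD200R1+ non-MRU. The 9 fell to as few as 6 under the alternatives. The call of Adipoq (adjusted p = 0.0496) was lost under 22 of 32 of them. For 3 of the 11 genes, at least 1 population held 3 counts or fewer. Lower than each population were Car3, Cidec, Cfd and Fabp4, a count that fell to 2 without all libraries of mouse 5. Fabp4, a fatty acid carrier of fat and capillaries, averaged 111 ± 37.5 CPM against 249, 4766 and 1253 CPM. Pparg, the fat-cell nuclear receptor, averaged 7.42 ± 2.20 CPM against 69.6 and 58.4 CPM in remaining MRU and CD200R1+ non-MRU, and was not called against CD200+CD200R1+ MRU, at 4.99 CPM (adjusted p = 0.141). Cidea, a lipid droplet protein of fat and of secretory mammary cells, went the other way, at 8.91, 19.4, 5.12, 17.2 and 37.8 CPM against at most 4.25 CPM elsewhere. The 5 libraries of Cidea did not overlap the rest.

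The proliferation, stress and signalling lists had median log2 differences from the mean between -0.64 and 1.13. Of 20 replication and mitosis genes, 15 were higher than the mean and none lower (median log2 difference 1.13), a count that fell to 8 without mouse 2 of CD200+ non-MRU. Mcm6, a subunit of the replicative helicase, stood at 63.7, 35.8, 89.5, 53.2 and 103 CPM against at most 35.6 CPM elsewhere. Mki67, the marker of cycling cells, averaged 21.2 ± 11.1 CPM and was not called (1.12-fold against the mean, adjusted p = 0.722). Of 22 immediate early genes, 5 were higher, near the share over all genes, and 12 lower than the mean (median -0.29), and Fos itself was not called against the mean (adjusted p = 0.0685). Fosb, its family member, stood at 1222, 1406, 1006, 1049 and 916 CPM, below every other library but only 1.67-fold under CD200+CD200R1+ MRU.

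Of 18 Notch pathway genes 1 was higher and 8 lower than the mean (median log2 difference -0.64). The higher count was 2 without mouse 4 or 6 of CD200+ non-MRU or mouse 2 or 6 of CD200R1+ non-MRU, and 5 under library totals alone. Against CD200+CD200R1+ MRU 2 were higher and 6 lower, and against remaining MRU 1 was higher and 10 lower. The ligands Dll1, at log2 -5.20 and -4.64, and Jag2, at -4.96 and -5.20, differed widely from both. The ligand Dll4 was at -0.88 and -4.74, so its difference lay mainly in the contrast with remaining MRU. From CD200R1+ non-MRU Dll1 and Jag2 differed by 3.33 and 0.95, and Dll4 by -0.125. Jag1, a Notch ligand of the basal layer, averaged 18.2 ± 5.16 CPM and was lower than each population, by 2.36-fold at the least, with mouse 2 overlapping mouse 3 of CD200R1+ non-MRU. Of 14 EGF-family and ERBB genes 4 were higher and 6 lower than the mean (median 0.47), beside 26.4% and 27.3% over all genes. Nrg1, a ligand of ERBB receptors, averaged 3.37 ± 1.08 CPM against 72.8 and 56.1 CPM in the MRU populations and 2.26 CPM in CD200R1+ non-MRU. Egfr, the receptor, averaged 76.2 ± 24.5 CPM against 595 CPM in CD200R1+ non-MRU and was not called against either MRU population (adjusted p = 0.162 and 0.278).

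The 5 CD200+ non-MRU mice differed in the summed level of several lists. Mouse 6 was the highest library in 9 of the 28 lists and the lowest in 13, and mouse 3 the highest in 11 and the lowest in 3. In mouse 6 the milk, B-cell, T-cell and class II lists were at their highest, at 39940, 8658, 1509 and 32990 CPM. The same library was lowest in the fibroblast (12970), Pi16-type (4501) and basal (268.5 CPM) lists. The remaining 4 libraries lay between 23320 and 27900 CPM for the fibroblast list and between 8134 and 10670 CPM for the Pi16-type list. The library also had the lowest total, 11317878 counts, and the fewest genes detected, 22321 against 23268 to 23722. Without it 4011 genes were higher and 4552 lower than the mean.

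**Figure D5:**
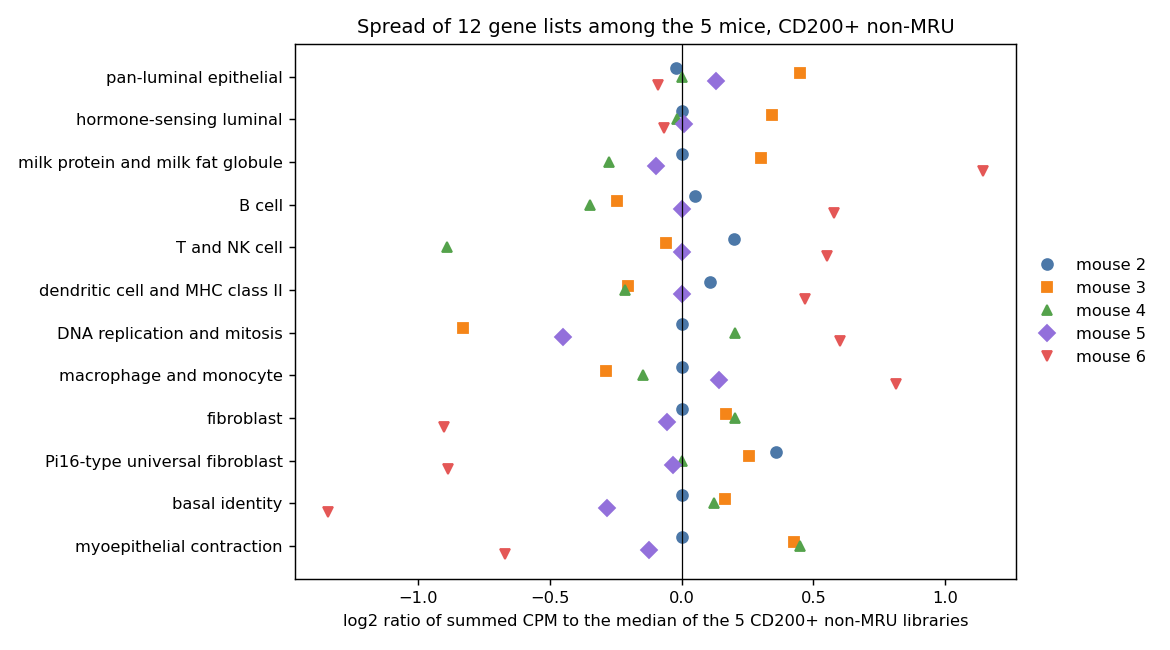
Summed level of 12 gene lists in the 5 CD200+ non-MRU libraries relative to the list's median over them, on a log2 axis with 1 symbol per mouse. Mouse 6 lies highest for milk, B-cell and T-cell lists and lowest for fibroblast, Pi16-type and basal lists.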

How the data were processed

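Poly(A) RNA was measured in 20 libraries, 5 mice by 4 sorted populations. The submitters' processing notes name the tools STAR 2.4.2a, HTSeq, cutadapt and DESeq2 and the genome build GRCm38. The annotation release, the parameters and whether counting used strand were not given in the sources used here, so reads of a gene and an overlapping antisense gene cannot be told apart. Raw counts, as the authors deposited them, are whole numbers for every gene in every library. A signal normalized to library size was deposited beside them, per the file headers, with log2 fold changes and p-values of 4 comparisons by the authors. These were not used here.

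Of 46603 genes, 37171 had a count, and filterByExpr left 17236. The counts were fitted with edgeR 4.0.16 (R 4.3.3; TMM, glmQLFit, glmQLFTest) on all 20 libraries with population and mouse as terms, and p-values were adjusted by Benjamini-Hochberg over all genes tested, with a threshold of 0.05, two-sided. The contrasts were CD200+ non-MRU against the mean of the 3 others and against each. The step was also run on simulated data with few changed genes and no mouse effect. That run does not test the block or data in which many genes differ. Libraries came from 5 individual mice, and the mouse number pairs the populations: deviations of the 30 same-mouse pairs correlated at 0.0173 to 0.349 (median 0.103), those of 120 pairs from different mice at -0.238 to 0.217 (median -0.0347). Each library counted as 1 replicate.

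Named genes were called against each population, did not overlap the 15 other libraries, averaged at least 10 CPM in CD200+ non-MRU (15 higher) or in every other population (10 lower), excluded predicted and mitochondrial genes and pseudogenes, and had the greatest difference from the nearest population. Members of 28 gene lists were named as well. The genes and lists were chosen with earlier results of these data known, and lists are described by counts and medians without a set test. For a gene with no count in a population, the level of 3 counts over its 5 libraries is given, which covers counting error only, since no molecular identifiers are named.

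Alternatives were edgeR's RLE factors, library totals alone, no filter and a filter of 1 CPM in 5 libraries, no mouse block, DESeq2 1.42.0, limma 3.58.1 voom, a gap of at least 2-fold, and leaving out each library or mouse.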

Additional observations from a re-analysis of the deposited data

Results flagged for a closer look

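Within the 5 CD200+ non-MRU libraries, 243 values of genes and list sums were tested for 1 library apart from the other 4 by Dixon's criterion (0.71 for 5 libraries), and 17 were. For independent, normally distributed values chance sets apart about 1 in 20 groups. These values were untransformed CPM, and list sums share genes with single values, so that rate cannot be set against the 17. Of the 17, 11 were in mouse 6. Its library was high for the casein genes Csn2 (8600 CPM), Csn1s1 (1515 CPM) and Csn1s2a (4272 CPM) and for the signal transducer Stat5a (43.5 CPM). It was also high for the B-cell genes Fcer2a (312 CPM) and Ms4a1 (392 CPM), the cytokine receptor Flt3 (19.1 CPM) and the chemokine receptor Ccr2 (24.1 CPM). The same library was low for the endothelial receptor Tek (14.9 CPM), and stood apart in Egfr (33.9 CPM) and the myosin light chain kinase Mylk (16.96 CPM).

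Mouse 3 stood apart in the luminal keratins Krt8 (2059 CPM) and Krt18 (5209 CPM), in the summed hormone-sensing list (5513 CPM) and in the myeloid integrin Itgam (0.837 CPM). The mast cell protease Mcpt4 reached 124 CPM in mouse 5, and Il1a 0.603 CPM in mouse 4. No cause of these differences was tested.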

How the results depend on the processing

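Under 33 alternative settings, 375 of 380 counts of called genes were within 1.5 times the reported count. No gene followed singly and called changed sign, while Ccr2, Ctss and Mki67, not called, did. Which direction held more calls was not stable: against the mean it was 4552 higher and 4697 lower, 4638 and 4620 with RLE factors, and 5788 and 3785 with library totals alone. Asking for a gap of at least 2-fold left 176 higher and 135 lower genes without overlap. Library totals alone gave 7074 higher and 3107 lower genes against CD200R1+ non-MRU and 606 lower genes without overlap. They moved the median log2 difference of all genes from -0.039 to 0.38 in that contrast and from -0.016 to 0.137 against the mean, and the higher share of calls from 46.2% to 69.5% and from 49.2% to 60.5%. Without the replicate block (the mouse term) the counts were 4385 higher and 4520 lower against the mean, 4234 and 4125 against CD200+CD200R1+ MRU, 3462 and 4146 against remaining MRU, 4107 and 4936 against CD200R1+ non-MRU, and 1634 and 1941 against each. The block moved none of these by over 1.5 times. Leaving out 1 library or mouse gave 3757 to 4702 higher and 4196 to 4839 lower genes against the mean, 1336 to 1823 and 1727 to 2123 against each, and 1058 to 1349 and 1065 to 1463 without overlap. The ranges were 3386 to 4599 and 3899 to 4609 against CD200+CD200R1+ MRU, 2855 to 3862 and 3920 to 4606 against remaining MRU, and 3740 to 4292 and 4476 to 5063 against CD200R1+ non-MRU. For 144 genes followed singly and called against each population, 165 of 4608 recomputed calls were lost, in 22 genes. Of 3584 list counts, 3447 were within 1.5 times; replication genes called higher against the mean went from 15 to 8 without CD200+ non-MRU mouse 2. The cause of these changes was not tested. Genes at a few counts per population carry the widest intervals.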

Other observations

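Mast cell genes were high in 2 of the 5 CD200+ non-MRU libraries and near 0 in the others. Cpa3, a carboxypeptidase of mast cell granules, stood at 0, 97.6, 0, 241 and 0 CPM in mice 2 to 6, and Cma1, the chymase, at 0.0789, 50.4, 0.904, 169 and 0 CPM. Mouse 5 was also the highest of the remaining MRU libraries for both, at 54.5 and 65.4 CPM. Of 8 tested genes of mast cells, granulocytes and red cells, 3 were called higher and 2 lower against the mean of the other populations by edgeR with Benjamini-Hochberg adjustment, with a median log2 difference of 0.75. The 3 higher calls became 1 without mouse 3 or mouse 5 of CD200+ non-MRU, where those of Cma1 and Mcpt4 were lost, and 0 with DESeq2. The 2 lower calls became 1 when any 1 of 7 libraries was left out. None was higher and 1, the granulocyte receptor gene Csf3r, was lower against each population. That higher count was not stable. It ranged from 0 to 3 over the alternatives and changed when any 1 of 6 libraries was left out.

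Genes of Schwann cells and nerve were called in both directions against the mean. Of 10 tested, 2 were called higher and 4 lower against the mean, beside 26.4% and 27.3% over all genes. The median log2 difference was -0.44, and 1 was higher without mouse 2 of CD200+ non-MRU. Against each population 0 were higher and 3 lower, namely Pmp22, Egr2 and Ncam1, beside 10.4% and 12% over all genes. The log2 difference of Ncam1, a cell adhesion molecule, from the mean was -1.95. Those of Gap43, Cdh19 and Mbp went the other way, at 1.41, 1.22 and 1.14. The summed level of the list was 303 to 556 CPM in CD200+ non-MRU and 538 to 840 CPM in CD200+CD200R1+ MRU. It was 612 to 889 CPM in remaining MRU and 704 to 971 CPM in CD200R1+ non-MRU. Of 6 tested genes of the sort and its gates, 3 were higher and 1 lower against the mean.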
